A study of Mus musculus with 2 samples.

Results

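The T-box genes encode transcription factors that share a DNA-binding domain, the T-box. 8 of them were followed here by name, Tbx1, Tbx2, Tbx3, Tbx4, Tbx5, Tbx15, Tbx18 and Tbx20, out of 43346 gene rows in each table. They were taken from a list of names drawn up with earlier results of these data known, and all 8 were found in both libraries. RNA was sequenced from the whole lung of healthy B6NCrl mouse embryos on embryonic day 16.5, with male and female embryos pooled. The 2 libraries are biological replicates of 1 group, and no treatment or altered allele is named in the labels. Replicate 2 was a pool of 41 embryos, and the number pooled for replicate 1 is not in the labels. A whole-lung library mixes epithelium, mesenchyme, vessels and mesothelium, so that fewer cells of a type and less RNA per cell cannot be told apart.

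T-box factors bind related short DNA elements, and members differ in whether they mainly activate or repress transcription. Tbx2 and Tbx3 act chiefly as repressors and recruit corepressors, whereas Tbx4, Tbx5 and Tbx20 can activate. In the developing lung, Tbx2, Tbx3, Tbx4 and Tbx5 are known from the mesenchyme, where Tbx4 and Tbx5 act on lung bud outgrowth and branching through Fgf10, and Tbx2 and Tbx3 keep cells dividing by repressing inhibitors of the cell cycle. Tbx1 is known from the pharyngeal arches, Tbx20 from heart muscle, Tbx18 from the epicardium and the cells around vessels, and Tbx15 from skeletal muscle, skin and limb mesenchyme.

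Replicate 1 held 38852470 expected counts and replicate 2 held 27145411, of which spike-ins took 2.30% and 2.32%. Markers of lung tissue were present, with 6 of 6 epithelial markers and 7 of 8 mesenchymal markers at 1 TPM or more in both libraries. TPM is the deposited level, scaled to a fixed total per library after division by transcript length. The exception was Twist1, at 0.35 and 0.32 TPM. Of all genes coding for protein, 61.5% reached 1 TPM in both libraries. Markers of neighbouring tissues were present too and differed between the libraries. The summed level of 5 liver markers was 49.6 and 417 TPM in replicates 1 and 2, and that of 9 skeletal muscle markers was 171 and 485 TPM. Every mean below is given ± SD over n = 2. With 2 libraries of a single group there is no test between groups, and no p-value is given. Since no source used here says how the pools were formed, the SD measures only the spread between these libraries.

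The RNA of the family came mainly from Tbx4, Tbx3, Tbx5 and Tbx2. These 4 genes summed to 167 TPM in replicate 1 and 145 TPM in replicate 2, which was 84.4% and 84.0% of the sum over all 17 T-box genes of the mouse. Tbx4 alone made up 29.9% of that sum in both libraries. Outside the member list, Mga stood at 21.1 and 18.3 TPM in replicates 1 and 2, beside Tbx2 at 21.02 and 20.55 TPM. The credibility bounds within each library overlapped for Mga and Tbx2, so their order was not resolved. Of the 8 members, 6 reached 1 TPM in both libraries (Tbx1 and Tbx20 beside the leading 4), where 61.5% of the 21474 genes coding for protein did. Tbx18 and Tbx15 did not reach that level in either library.

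Tbx4, a regulator of lung and hindlimb bud growth, lies on chromosome 11 (mm10 chr11:85886422-85916097, plus strand). It stood at 59.2 and 51.4 TPM in replicates 1 and 2, from 4700 and 2885 expected counts, with a mean of 55.3 ± 5.54 TPM. That placed it 2945th among the genes coding for protein, above 86.3% of them. The lower value was in replicate 2, and the credibility bounds within each library, 56.4 to 59.8 TPM and 48.1 to 51.8 TPM, did not overlap.

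Tbx5, the paralog of Tbx4 best known from the heart and forelimb, lies on chromosome 5 (chr5:119832668-119885219, plus strand). It stood at 39.4 and 34.5 TPM in replicates 1 and 2, from 3957 and 2453 counts, with a mean of 36.9 ± 3.50 TPM, above 80.4% of coding genes. Replicate 2 was again the lower one, with bounds of 32.1 to 34.8 TPM against 37.3 to 39.7 TPM.

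Tbx4 and Tbx5 had 4 coding exons of equal length, together 516 nt. In these, 76.9% of bases were the same, with 74.7% to 79.1% per exon. The place of the T-box domain in them was not mapped. The longest of them, 153 nt, is printed to show how the paralogs differ along an exon (Tbx4 at chr11:85911107-85911259, Tbx5 at chr5:119844965-119845117). Capitals mark the 32 differing bases.
Tbx4: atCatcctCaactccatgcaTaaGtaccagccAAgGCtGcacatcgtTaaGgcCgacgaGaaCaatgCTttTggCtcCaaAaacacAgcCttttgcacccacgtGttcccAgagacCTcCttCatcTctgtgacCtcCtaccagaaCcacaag
Tbx5: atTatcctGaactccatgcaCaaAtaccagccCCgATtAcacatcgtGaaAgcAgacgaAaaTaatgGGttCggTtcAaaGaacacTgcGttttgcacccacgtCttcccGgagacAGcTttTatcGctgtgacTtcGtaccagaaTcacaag

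Tbx3, a repressor whose loss affects mammary gland and limb, lies upstream of Tbx5 (chr5:119670669-119684724, plus strand). It stood at 47.5 and 38.1 TPM in replicates 1 and 2, from 5744 and 3250 counts, with a mean of 42.8 ± 6.65 TPM, above 82.8% of coding genes. Its bounds, 45.4 to 49.2 TPM and 35.8 to 39.4 TPM, were apart, with replicate 2 the lower. Its expected counts, 5744.35 and 3250.06, were not whole numbers, as happens where some reads are divided with another gene. Those of the antisense gene Tbx3os1, which overlaps Tbx3, were not whole either, at 94.65 and 71.94. The expected counts of the other 7 members were whole in both libraries.

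Tbx2, the closest paralog of Tbx3, lies upstream of Tbx4 (chr11:85832551-85841948, plus strand). It stood at 21.02 and 20.55 TPM in replicates 1 and 2, from 1938 and 1343 counts, with a mean of 20.8 ± 0.332 TPM, above 70.8% of coding genes. Its bounds overlapped, at 19.7 to 21.5 TPM and 18.9 to 21.03 TPM, so the libraries could not be told apart in this gene.

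Tbx2 and Tbx3 had 3 coding exons of equal length, together 492 nt, in which 77.2% of bases were the same (75.4% to 81.0% per exon). The longest, 268 nt, lies just before the alternative exon of Tbx3 described further on (Tbx2 at chr11:85834620-85834887, Tbx3 at chr5:119674026-119674293). Capitals mark the 66 differing bases.
Tbx2: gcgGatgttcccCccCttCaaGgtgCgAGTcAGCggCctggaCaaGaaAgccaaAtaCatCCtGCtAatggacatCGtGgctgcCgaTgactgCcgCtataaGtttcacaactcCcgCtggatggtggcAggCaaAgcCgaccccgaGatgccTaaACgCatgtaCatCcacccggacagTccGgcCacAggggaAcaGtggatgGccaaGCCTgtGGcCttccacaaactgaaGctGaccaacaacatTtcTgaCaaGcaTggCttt
Tbx3: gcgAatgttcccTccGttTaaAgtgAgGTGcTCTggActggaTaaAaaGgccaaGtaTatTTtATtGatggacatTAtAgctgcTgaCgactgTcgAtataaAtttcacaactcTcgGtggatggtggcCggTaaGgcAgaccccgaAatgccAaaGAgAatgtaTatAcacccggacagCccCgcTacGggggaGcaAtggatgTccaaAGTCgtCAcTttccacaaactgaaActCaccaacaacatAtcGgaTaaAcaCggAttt

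**Figure D1:**
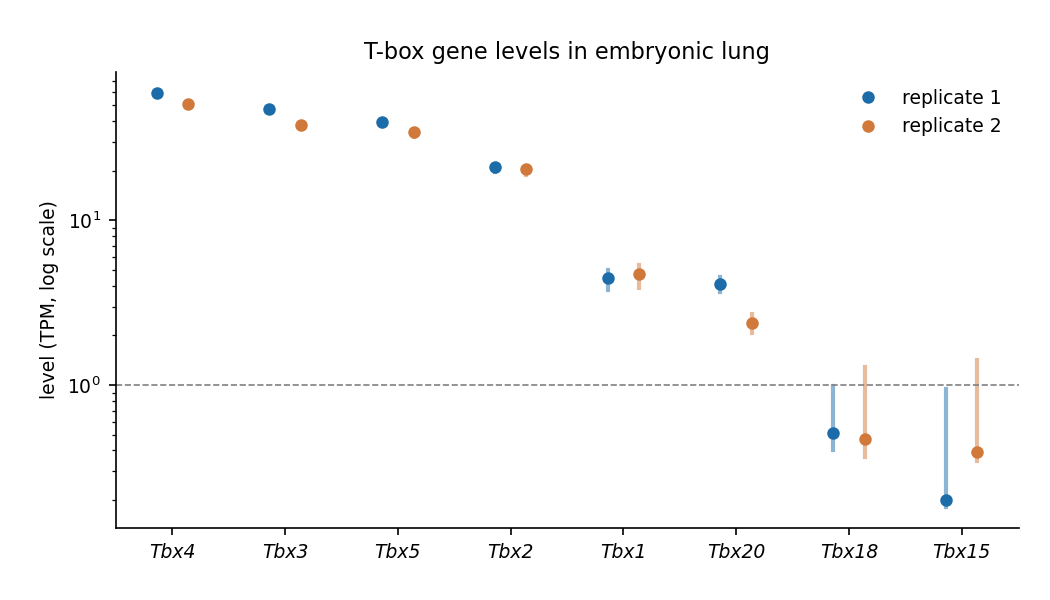
Level of the 8 T-box genes in TPM on a log axis, one point per library, with the credibility bounds of that library as a vertical line and the 1 TPM level as a dashed line. Tbx4, Tbx3, Tbx5 and Tbx2 lie between 20.6 and 59.2 TPM, Tbx1 and Tbx20 between 2.38 and 4.73 TPM, and Tbx18 and Tbx15 below 1 TPM.

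The other detected members stood lower. Tbx1, known for its role in the pharyngeal arches and outflow tract (chr16:18580979-18590671, minus strand), stood at 4.47 and 4.73 TPM in replicates 1 and 2, from 196 and 147 counts. Its mean of 4.6 ± 0.184 TPM was above 49.4% of coding genes, and its bounds overlapped. Tbx20, a cardiac regulator (chr9:24718138-24774303, minus strand), stood at 4.13 and 2.38 TPM, from 618 and 272 counts, with a mean of 3.26 ± 1.24 TPM. Its bounds of 3.69 to 4.51 TPM and 2.07 to 2.70 TPM were apart, with replicate 2 at 0.576 of replicate 1.

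The remaining members were read at low depth. Tbx18 (chr9:87702800-87731260, minus strand) had 61 and 40 counts in replicates 1 and 2, or 0.51 and 0.47 TPM. The exact 95% Poisson intervals of those counts ran from 0.390 to 0.655 TPM and from 0.337 to 0.642 TPM and cover counting error only. Tbx15 (chr3:99240381-99354259, plus strand) had 18 and 25 counts, or 0.20 and 0.39 TPM, with intervals of 0.118 to 0.314 TPM and 0.252 to 0.574 TPM. The deposited credibility bounds were wider, at 0.404 to 0.988 TPM and 0.363 to 1.29 TPM for Tbx18 and 0.181 to 0.951 TPM and 0.345 to 1.41 TPM for Tbx15. The posterior mean TPM of the same tables was also higher than TPM, at 0.66 and 0.76 for Tbx18 and 0.51 and 0.80 for Tbx15. The credibility bounds of these genes overlapped within both libraries, so their order was not resolved.

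In the order of mean levels, Tbx4 lay above Tbx3 without overlap of the libraries. The ranges of Tbx3 (38.1 to 47.5 TPM) and Tbx5 (34.5 to 39.4 TPM) overlapped, although Tbx3 was the higher in each library. Tbx2 lay below Tbx5, and Tbx1 below Tbx2, without overlap of the libraries. Tbx1 lay above Tbx20 in both libraries, but their bounds overlapped in replicate 1, at 3.79 to 5.02 TPM for Tbx1 and 3.69 to 4.51 TPM for Tbx20.

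Tbx2 and Tbx4 form one linked pair and Tbx3 and Tbx5 the other. In each pair both genes lie on the plus strand, with the repressor upstream. The gap from the end of Tbx2 to the start of Tbx4 is 44.473 kb, and that from Tbx3 to Tbx5 is 147.943 kb. By exon lengths the genes match across the pairs instead. Among coding exons of at least 60 nt, Tbx2 and Tbx4 had 0 of equal length, as had Tbx3 and Tbx5, where Tbx2 and Tbx3 had 3 and Tbx4 and Tbx5 had 4.

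**Figure D2:**
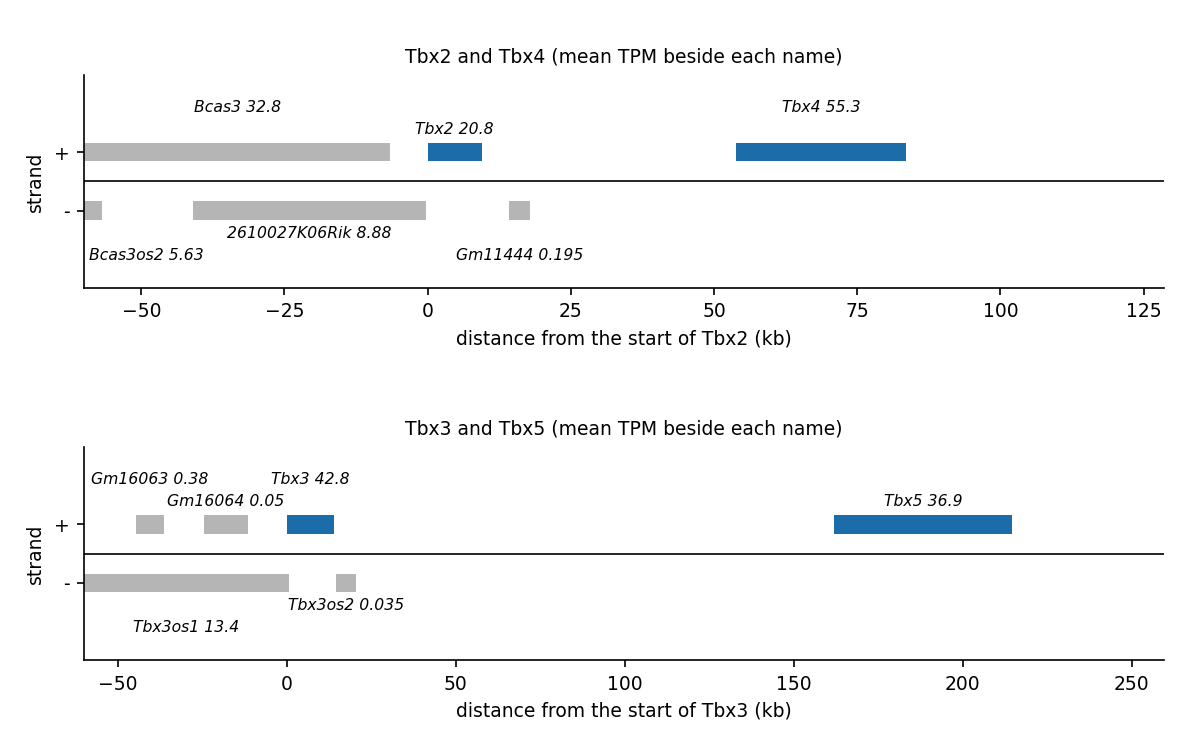
Map of the linked pairs Tbx2 and Tbx4 (top) and Tbx3 and Tbx5 (bottom), with distance in kb from the start of the first gene on the x axis, strand on the y axis, and the mean TPM of both libraries beside each measured gene longer than 1 kb. The T-box genes are blue and neighbours grey, and bars that reach the left edge go on beyond it. Tbx4 is at 55.3 TPM beside Tbx2 at 20.8 TPM, and Tbx3 is at 42.8 TPM beside Tbx5 at 36.9 TPM.

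The linked pairs differed in how their members compared. Within each library Tbx4 exceeded Tbx2 by 2.82-fold in replicate 1 and 2.50-fold in replicate 2, a mean log2 ratio of Tbx2 to Tbx4 of -1.41 ± 0.12. Tbx3 exceeded Tbx5 by 1.21-fold and 1.11-fold, a mean log2 ratio of 0.21 ± 0.09. Thus the downstream gene was the higher in the Tbx2 and Tbx4 pair and the upstream gene in the Tbx3 and Tbx5 pair, in both libraries.

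Between paralogs, Tbx4 exceeded Tbx5 by 1.50-fold and 1.49-fold, a mean log2 ratio of 0.58 ± 0.01, the narrowest spread of the 6 ratios computed. Tbx3 exceeded Tbx2 by 2.26-fold and 1.85-fold, a log2 ratio of Tbx2 to Tbx3 of -1.03 ± 0.20. The log2 ratio of Tbx20 to Tbx18 was 3.02 and 2.34, with a mean of 2.68 ± 0.48. The log2 ratio of Tbx15 to Tbx18 was -1.35 and -0.27, and its mean of -0.81 ± 0.76 did not exceed 2 SD. It was the only one of the 6 that did not.

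Of the 6 members with a mean of at least 1 TPM, 0 differed 2-fold or more between the replicates, where 2.67% of the 15493 genes at that mean did. On the log2(TPM + 1) scale, which understates the difference of low genes, 5 of the 6 were lower in replicate 2, where 49.5% of all such genes were. The median difference, replicate 2 minus replicate 1, was -0.19 over these members and 0.00 over all such genes. The bounds were apart in 4 of the 6 members, Tbx3, Tbx4, Tbx5 and Tbx20, against a background of 16.6%. In those 4 replicate 2 was the lower one, and bounds apart with replicate 2 lower held for 9.9% of all such genes. These backgrounds span all levels from a mean of 1 TPM and were not matched to the members for level or counts.

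The differences were -0.20 for Tbx4, -0.31 for Tbx3, -0.19 for Tbx5 and -0.03 for Tbx2. Over the 7597 genes between 10 and 100 TPM the SD of the difference was 0.24, so that of Tbx3 exceeded 1 SD and those of Tbx4, Tbx5 and Tbx2 did not. Over the 6238 genes between 1 and 10 TPM the SD was 0.53. Tbx20, at -0.60, exceeded it and Tbx1, at 0.07, did not.

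**Figure D3:**
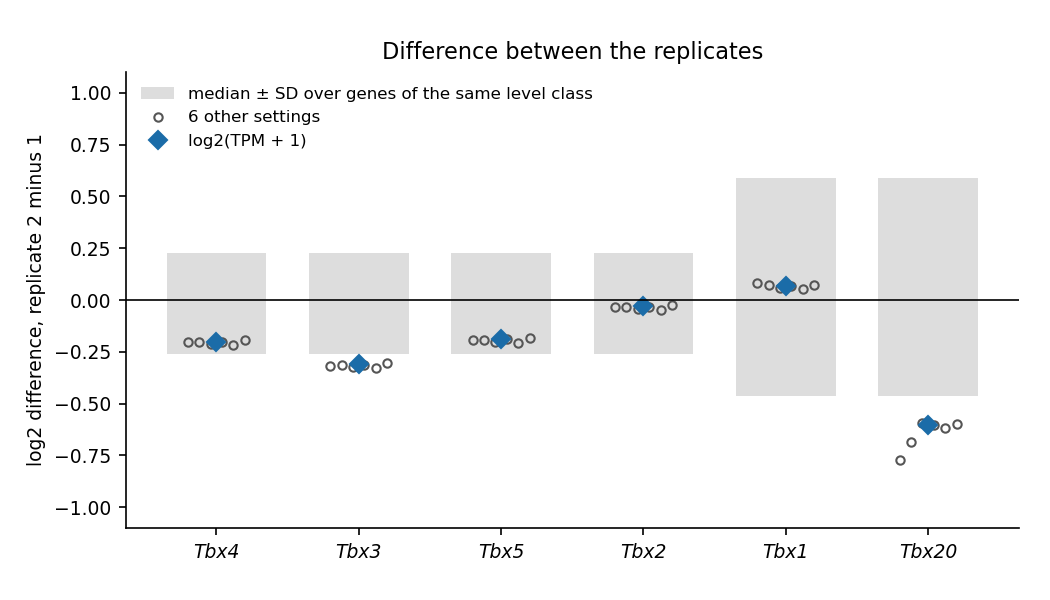
Difference between the replicates on a log2 scale, replicate 2 minus replicate 1, for the 6 members with a mean of at least 1 TPM. Diamonds are log2(TPM + 1), circles are other pseudocounts and scalings, and grey boxes are the median ± SD over all genes of the same level class. Tbx20 at -0.60 and Tbx3 at -0.31 lie below their boxes.

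Markers of heart muscle, the tissue in which Tbx20 is best known, were read in both libraries. Of 11 cardiac markers 10 were detected, where 61.5% of all coding genes were. The sum over the 11 was 1180 TPM in replicate 1 and 985 TPM in replicate 2. 7 of the 11 were lower in replicate 2, with a median difference of -0.27. Among them, the atrial light chain gene Myl7 stood at 565 and 377 TPM, the heavy chain gene Myh6 at 81.8 and 49.2 TPM, and Nkx2-5, a cardiac transcription factor that acts with Tbx20 and Tbx5, at 2.47 and 1.29 TPM. Nppa, at 102 and 136 TPM, and Sln, at 62.4 and 117 TPM, went the other way. The part of cardiac RNA in the Tbx20 difference was not tested.

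Markers of other cell types in which these genes are known gave the following values. The mesenchymal list was lower in replicate 2 for 4 of 8 markers, with sums of 3118 and 2923 TPM and a median difference of -0.01. For the mesothelium, the outer lining of the lung, 6 of 7 measured markers were higher in replicate 2, with sums of 391 and 485 TPM. Most of those sums was Krt19, at 296 and 364 TPM. For pericytes, 5 of 7 were lower, with sums of 196 and 190 TPM. Of the skeletal muscle markers 8 of 9 were higher in replicate 2, with a median difference of 0.96. They ranged from the actin gene Acta1, at 75.8 and 269.6 TPM, to the muscle stem cell gene Pax7, the one lower in replicate 2, at 0.03 and 0.01 TPM. For Tbx15, known from this muscle, the bounds of the replicates overlapped, so its libraries could not be told apart. The part of these cell types in the differences of the T-box genes was not tested.

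Of the detected members, 3 had a single transcript in the deposited tables (Tbx1, Tbx2 and Tbx5) and 3 had several (Tbx3, Tbx4 and Tbx20). In those 3 the same transcript led in both libraries, where 90.3% of the 10287 genes of that kind kept their leading transcript. The transcript tables give each transcript's share of its gene's TPM.

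Tbx3 had the most divided RNA. Tbx3-203 led with 49.7% and 45.9% of the gene in replicates 1 and 2, followed by Tbx3-201 with 33.5% and 40.0% and Tbx3-202 with 14.2% and 10.95%. Tbx3-204, which retains an intron, held 2.69% and 3.22%, and Tbx3-205 was listed at 0. Among the coding transcripts, Tbx3-201 alone holds a 60-nt coding exon (chr5:119675243-119675302) within the part that encodes the T-box, and a protein with the added stretch is known as a splice form of Tbx3. The joined sequence with the exon in capitals, and the same flanks without it, show what the forms differ by.
Tbx3-201: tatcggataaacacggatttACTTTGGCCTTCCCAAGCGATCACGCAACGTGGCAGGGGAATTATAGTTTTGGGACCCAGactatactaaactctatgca
Tbx3-202: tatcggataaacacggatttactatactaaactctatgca

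The form with the exon stood at 15.9 and 15.2 TPM in replicates 1 and 2. The coding forms without it summed to 30.4 and 21.7 TPM. By these transcript estimates the exon was in 34.4% and 41.3% of coding Tbx3 TPM, with a mean of 37.8% ± 4.88. Replicate 2 was the lower in both, by 0.67 TPM of the form with the exon and 8.69 TPM of the forms without it. Reads over the exon itself were not counted. The coding forms also differ in their first exon, of 1387 nt in Tbx3-201, 1736 nt in Tbx3-202 and 196 nt in Tbx3-203. The split therefore does not rest on the added exon alone.

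Tbx4 came mostly from its most upstream start. Tbx4-203 held 87.4% and 82.5% of the gene in replicates 1 and 2, or 51.8 and 42.4 TPM. Tbx4-201, which starts 3.641 kb further on, held 11.6% and 16.7%, or 6.86 and 8.58 TPM, so it was higher in replicate 2 while the leading transcript was lower. These transcripts have the same 1656 coding nt. They are told apart by 144 nt found only in Tbx4-203 and 2 nt found only in Tbx4-201, so their split rests on few bases. Tbx4-202 starts 10.343 kb downstream of Tbx4-203, holds 1356 coding nt and took 0.99% and 0.79%. It lacks the first coding exon (chr11:85890063-85890263, 201 nt), printed here because it is the coding sequence that nearly all Tbx4 RNA of this lung carried.
Tbx4 first coding exon: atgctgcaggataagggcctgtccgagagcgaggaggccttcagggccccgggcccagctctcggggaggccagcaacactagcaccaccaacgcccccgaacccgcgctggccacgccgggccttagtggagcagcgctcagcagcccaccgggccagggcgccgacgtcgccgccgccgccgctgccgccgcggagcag

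Tbx20 had a long and a short coding form. Tbx20-201, with 1335 coding nt, held 86.8% and 96.5% of the gene in replicates 1 and 2, from 594 and 269 counts. Tbx20-202, with 891 coding nt, held 13.2% and 3.55%, from 24.2 and 2.65 counts, so its share in replicate 2 rests on fewer than 3 reads. The forms part after the same exon end, shown in lower case, and the next bases of each are in capitals. After that point Tbx20-201 has 448 further coding nt and Tbx20-202 has 4.
Tbx20-201: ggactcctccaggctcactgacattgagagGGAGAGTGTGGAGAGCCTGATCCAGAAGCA
Tbx20-202: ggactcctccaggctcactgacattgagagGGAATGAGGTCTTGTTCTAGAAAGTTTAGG

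**Figure D4:**
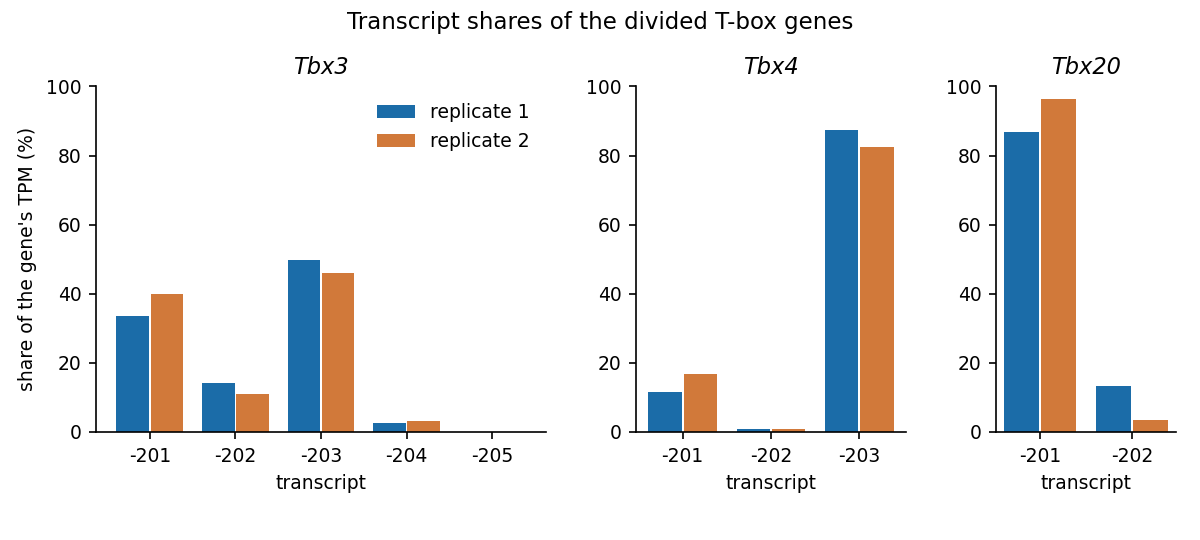
Share of the gene's TPM held by each transcript of Tbx3, Tbx4 and Tbx20 in percent, one bar per library, with transcript numbers on the x axis. Tbx4-203 and Tbx20-201 hold 82.5% or more in both libraries, while Tbx3 is divided among Tbx3-203, Tbx3-201 and Tbx3-202.

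Of Tbx15 and Tbx18, which lie below 1 TPM, Tbx15-201 and Tbx18-201 were given 100% of the gene in both libraries. The posterior mean estimates of the same tables gave Tbx15-201 38.6% and 48.1% and Tbx18-201 76.2% and 60.4%. With 18 to 61 counts per gene these shares were not resolved. Tbx15 and Tbx18 are paralogs with 4 coding exons of equal length, in which 76.5% of 507 bases were the same. Tbx1 had 2 such exons with Tbx15 and 2 with Tbx18, in which 60.6% and 64.2% of bases were the same.

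The rest of the T-box family was below 1 TPM in both libraries, with Mga as the exception. Of the 9 other T-box genes 1 was detected, where 61.5% of all coding genes were. Mga, a large protein that joins a T-box to a domain of the Max network, stood at 21.1 and 18.3 TPM. Brachyury (T) stood at 0.11 and 0.33 TPM, the presomitic gene Tbx6 at 0.21 and 0.56 TPM, and the T cell gene Tbx21 at 0.03 and 0.18 TPM. Eomes, Tbr1, Tbx10, Tbx19 and Tbx22 were at or below 0.09 TPM in both libraries. A count of 0 allowed up to 0.0443 TPM for Eomes in replicate 1, and up to 0.133 TPM for Tbx19 and 0.0620 TPM for Tbx22 in replicate 2, from a limit of 3 counts.

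Targets and partners of the lung T-box factors were mostly present. Of a list of 26 genes 22 were detected, where 61.5% of all coding genes were. The list had a median of 17.3 and 15.6 TPM in replicates 1 and 2, where all coding genes had 4.71 and 5.02 TPM. Fgf10, the mesenchymal growth factor downstream of Tbx4 and Tbx5, stood at 18.8 and 17.6 TPM, and its epithelial receptor gene Fgfr2 at 164 and 169 TPM. Wnt2, which Tbx5 is known to activate in the lung mesenchyme, stood at 72.2 and 72.8 TPM, while its relative Wnt2b stood at 0.82 and 1.04 TPM. Bmp4, a growth factor of the distal bud, stood at 58.0 and 60.2 TPM.

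The genes that Tbx2 and Tbx3 are known to repress spanned a wide range. The cell cycle inhibitor gene Cdkn1a stood at 41.0 and 42.4 TPM and Cdkn1b at 18.2 and 16.7 TPM. Cdkn2a had 0 counts in both libraries, which allows up to 0.148 and 0.209 TPM. The Wnt antagonist genes Frzb, at 1.24 and 2.20 TPM, and Shisa3, at 1.78 and 1.81 TPM, lay below the median of coding genes, and the cytokine gene Il33, at 7.61 and 9.5 TPM, lay above it. Ccn4, listed by its older name Wisp1, stood at 19.7 and 18.0 TPM. Of the partners, Gata6 stood at 16.3 and 14.5 TPM, Gata4 at 2.42 and 2.00 TPM, and Hand2 at 0.46 and 0.38 TPM.

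All 8 corepressor genes were detected, where 61.5% of all coding genes were, with a median of 31.3 and 32.4 TPM. The histone deacetylase genes Hdac1, at 207 and 204 TPM, and Hdac2, at 153 and 138 TPM, led the list. The Groucho genes followed at lower levels, with Tle2 at 43.0 and 44.8 TPM, Tle3 at 19.6 and 19.6 TPM, Tle1 at 13.2 and 12.9 TPM and Tle4 at 8.58 and 9.09 TPM. Levels of these lists describe whole lung and do not show that a listed gene shares a cell with a T-box factor.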

How the data were processed

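Total RNA longer than 200 nt from whole lung was extracted with an Ambion mirVana kit and 10 ng entered each of the 2 libraries, with spike-ins, per the labels' protocols. The authors deposited a gene table and a transcript table per library, quantified on mm10 with GENCODE M4, per the submitters' processing notes. The expected counts the authors deposited are estimated reads per gene, with reads of several matches split among their genes. The deposited TPM values divide by effective length and are scaled to the same total per library, spike-ins included, per the file headers. The deposited score columns are the lower and upper credibility bounds of TPM within a library. The deposited percent values give a transcript's share of its gene. Posterior mean TPM is a second deposited estimate. The aligner, the quantifier and the strand setting are not given in the sources used here.

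GENCODE M21, also on mm10, gave the symbols, coordinates and sequences, joined on identifiers stripped of their version (42462 of 43346 gene rows). Rows that name neither a gene nor a spike-in, 26249 in each table, held 0.000191% and 0.000273% of the counts and were left out. Of 18 transcripts of the members, 14 have the same length in the deposited tables and M21. The others include Tbx20-201, the leading transcript of Tbx20, with 6436 nt as deposited and 9091 nt in M21. Its TPM, transcript share and ratios rest on the deposited length, while its printed junction and coding length come from M21. No paired or group test was possible with 1 group, so levels, ratios within a library and replicate differences on log2(TPM + 1) are given. A ratio was taken to hold its sign when both libraries had it and its mean exceeded 2 SD. Expected counts were rounded for edgeR 4.0.16 (TMM) and DESeq2 1.42.0 (size factors), used for the alternatives only. The log2 difference and the 2-fold count were tested on simulated Poisson counts, for genes at 10 TPM or more. Other steps and lower genes were not tested in this way. Named genes were all members, the other T-box genes, every gene within 100 kb of a member, and the lists of targets, corepressors and markers. The members and lists were chosen with earlier results of these data known. The mesothelial marker Muc16 was not analysed here. Sums of further lists in replicates 1 and 2 were 966 and 895 TPM for smooth muscle and 685 and 665 TPM for endothelium. Those of epithelium were 11763 and 15063 TPM, of cartilage 99.6 and 106 TPM, and of thymus 10.3 and 26.9 TPM. Brown fat markers summed to 29.3 and 31.6 TPM, of which Prdm16 took 20.9 and 23.2 TPM. Of these 5 markers 2 were detected, where 61.5% of all coding genes were, and Ucp1 stood at 0.02 and 0.14 TPM.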

Additional observations from a re-analysis of the deposited data

How the results depend on the processing

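Over 158 recomputed values, the count of members at 2-fold was 0 in every alternative run, and that of detected members was 6 in each except a threshold of 10 expected counts, at which all 8 were detected. The summed level of the 8 members, 164.5 TPM, was 187.8 TPM without spike-ins, globin and mitochondrial genes and 114.1 as TMM-scaled counts divided by length, and 152.5 to 176.5 TPM with 1 library left out. With expected counts not divided by length, the log2 ratio was -1.42 for Tbx2 to Tbx3, -1.19 for Tbx2 to Tbx4, 0.47 for Tbx3 to Tbx5 and 0.24 for Tbx4 to Tbx5, each with its sign kept. By the posterior mean TPM, the log2 ratio of Tbx20 to Tbx18 was 2.14, and the difference of Tbx18 between replicates was 0.08439 where TPM gave -0.03873. These changes follow from the scale or length division that each alternative sets, except those of the posterior mean, whose cause was not tested. The same leading transcript in 5 of 5 members with several became 4 of 5 by the posterior mean. Leaving out a library was not run for leading transcripts, since 1 library leaves no comparison. No paired analysis was possible because there is 1 group. Depth limits Tbx15 and Tbx18, with 18 to 61 counts.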

Other observations

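Genes beside the T-box genes were read as well. Of 37 annotated neighbours within 100 kb of a member, 23 had a row, 9 were detected and 7 had 0 counts in both libraries. Of genes coding for protein 61.5% were detected, but many of these neighbours are noncoding genes or pseudogenes. No share over genes of the same classes was computed, so the count only describes these neighbours. Tbx3os1, an antisense RNA that starts inside Tbx3 and runs away from it, stood at 13.1 and 13.8 TPM in replicates 1 and 2, from 94.7 and 71.9 counts. Its leading transcript, Tbx3os1-201, held 77.8% and 76.7% of the gene, and 115 of its 282 nt lie over exons of Tbx3. Without a strand setting in the sources used here, reads of Tbx3 and Tbx3os1 in that stretch cannot be told apart. Tbx3os2, downstream of Tbx3, had 1 count in each library. Beside Tbx2, the noncoding gene 2610027K06Rik starts 328 bp from the start of Tbx2 on the opposite strand and stood at 8.58 and 9.18 TPM. Bcas3, upstream of Tbx2, stood at 32.2 and 33.4 TPM. Between Tbx2 and Tbx4, Gm11444 had 2 counts in each library. Of the genes beside less abundant members, Sept5 stood at 16.9 and 18.0 TPM and Gnb1l at 10.5 and 10.7 TPM beside Tbx1, Wars2 at 5.59 and 6.53 TPM beside Tbx15, and Dpy19l2 at 0.42 and 0.63 TPM beside Tbx20.

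Mga differed from the members in the make-up of its RNA. By share of TPM, which divides by length, its retained-intron transcripts held 44.4% in replicate 1 and 42.9% in replicate 2. Its coding transcripts held 41.8% and 47.4%. Single transcripts were less steady, with Mga-211 at 8.51% and 0% and Mga-207 at 3.72% and 8.47%. The leading transcript by this share, Mga-210, retains an intron and held 32.2% and 34.4%. The coding transcript Mga-204 followed at 29.7% and 26.7%. Mga-210 is 2763 nt long and Mga-204 is 13931 nt long. By expected counts the order was the reverse, with 473 and 311 for Mga-210 and 2265 and 1254 for Mga-204. Among the members, the retained-intron transcript of Tbx3 held 2.69% and 3.22%.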
